A study of Mus musculus with 9 samples.

Results

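Nutrient-sensing G protein-coupled receptors are the transcripts described here, chosen by gene symbol as 10 members of the 35013 symbols listed in each of 2 tables. The members were the fatty acid receptors Ffar1, Ffar4, Ffar2 and Ffar3, the lipid amide receptor Gpr119, the bile acid receptor Gpbar1, the amino acid-responsive receptors Casr and Gpr142, the lysophosphatidic acid receptor Lpar5 and the galanin receptor Galr1. Galanin is a neuropeptide and not a nutrient, so for Galr1 the label holds only in the sense that this receptor acts on the same hormone-secreting cells. All 10 symbols were found in both tables.

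Bulk RNA-Seq was performed on poly-A RNA of epithelial cells that were sorted from the small intestines of NFKO mice, which were 4 to 6 weeks old. NFKO mice carry Neurog3Cre, floxed FoxO1 alleles and the Rosa26tdtomato reporter, so Cre from the Neurog3 promoter deletes FoxO1 and turns on Tomato in progenitors of enteroendocrine cells and in their descendants. The sort gave 3 populations with 3 replicates each: CD24negTomato+, CD24+Tomato+ and Tomatoneg cells. All of them came from NFKO mice, the Tomatoneg cells included, and no Tomato+ cells with intact FoxO1 were part of the series, so the comparisons set the Neurog3 lineage against the rest of the epithelium and not FoxO1 loss against its presence. The first table holds CD24negTomato+ and Tomatoneg libraries and the second holds CD24+Tomato+ and the same Tomatoneg libraries, normalized again. How many mice made up a library was not stated, and p-values measure only the spread between these libraries.

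Enteroendocrine cells (EEC) are scattered hormone cells that sense the gut contents and release peptides such as GLP-1, CCK and PYY or the amine serotonin. Receptors on their surface bind products of digestion and of the microbiota. FFAR1 and FFAR4 bind long-chain fatty acids and signal mainly through Gq, FFAR2 binds short-chain fatty acids and couples to Gq and Gi, and FFAR3 binds short-chain fatty acids and couples to Gi. GPR119 and GPBAR1 raise cAMP through Gs, and both are known stimulators of GLP-1 release.

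Depth, taken as the sum of a library divided by the value of about 1 read, was 27723742 to 39240059 reads in Tomato+ libraries and 19158348 to 24373149 in Tomatoneg libraries. A normalized count worth 3 reads, used as the limit of detection, ranged from 2.1 to 2.92 for Tomato+ and from 3.23 to 4.29 for Tomatoneg libraries, and this limit covers counting error only. Tomatoneg replicate 1 stood apart: 13025 symbols were above 0 in it, against 15644 to 18530 in the other libraries, and 23 genes of the first table and 49 of the second were listed at 0 in it while each of the other 5 libraries had at least 100 normalized counts. Ffar1, Ffar3, Ffar4, Gpr119, Casr, Gpr142 and Galr1 were among the symbols listed at 0 in this library, so the change of each receptor is given with and without it, and the lists are counted both ways. Foxo1, the targeted gene, had values of 467, 274 and 371 in the CD24negTomato+ libraries, in the order of replicates 1, 2 and 3, beside 695, 518 and 424 for the Tomatoneg cells of that table. In the second table Foxo1 was 319, 193 and 201 in CD24+Tomato+ and 748, 529 and 444 in Tomatoneg libraries. Foxo1 ranges overlapped in the first table and were apart in the second, and a whole-gene value does not show whether the floxed exon was present.

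The Tomato+ populations were described with 12 EEC markers. None of these was at 0 throughout either population, but none was at 0 throughout Tomatoneg libraries either, so detection alone does not set the populations apart. Chga, the secretory granule protein chromogranin A, was 9808, 19769 and 15349 normalized counts in CD24negTomato+ libraries and 48208, 35419 and 24707 in CD24+Tomato+ libraries. Tomatoneg libraries held 688 to 1317 in the first table. Both populations were mixed: the 8 goblet markers had sums of 2106810 to 2808710 in CD24negTomato+ libraries, 995578 to 1256950 in CD24+Tomato+ libraries and 133197 to 217560 in Tomatoneg libraries, in tables that were normalized separately. The 8 tuft markers had sums of 345 to 384, 12528 to 14885 and 1271 to 2004 in the same order, and Il25 among them was at 0 in all CD24negTomato+ libraries. The 6 Paneth markers had sums of 18132 to 45002, 461569 to 1890480 and 34699 to 148432. In bulk libraries like these, fewer cells of a type and less RNA per cell cannot be told apart.

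Of the 4 fatty acid receptor genes, 3 lie together on mouse chromosome 7 (GRCm38, GENCODE M21), all on the minus strand and each with 1 coding exon. Ffar2 spans 30818348 to 30823775, Ffar3 spans 30854330 to 30856178 and Ffar1 spans 30857390 to 30861564, with 1211 bases between Ffar3 and Ffar1 and 30554 between Ffar2 and Ffar3. Ffar4 lies apart, on chromosome 19 at 38097071 to 38114263. Of the other members, Gpr119 lies on chromosome X at 48667979 to 48674478, Gpbar1 on chromosome 1 at 74278550 to 74279624, Casr on chromosome 16 at 36493696 to 36562141, Gpr142 on chromosome 11 at 114798924 to 114806745 and Lpar5 on chromosome 6 at 125067920 to 125082472. No member overlapped another protein-coding gene, and only Casr overlapped any annotated gene, a small non-coding RNA within its span. Promoter sequences from RefSeq (GRCm38.p6) were matched for 9 members. Those of the neighbours Ffar1 and Ffar3, and of Gpr119, are shown because, relative to Chga, the ranges of the Tomato+ populations were apart for Ffar3 and Gpr119 and overlapped for Ffar1, as given further on. Each is the 250 bases upstream of the RefSeq start, read 5′ to 3′ on the minus strand, with E-boxes (CANNTG, the motif class bound by NEUROG3, NEUROD1 and other basic helix-loop-helix factors) in capitals. The motif reads the same on both strands, and it was the single motif searched.

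Ffar1, chr7:30861471-30861720: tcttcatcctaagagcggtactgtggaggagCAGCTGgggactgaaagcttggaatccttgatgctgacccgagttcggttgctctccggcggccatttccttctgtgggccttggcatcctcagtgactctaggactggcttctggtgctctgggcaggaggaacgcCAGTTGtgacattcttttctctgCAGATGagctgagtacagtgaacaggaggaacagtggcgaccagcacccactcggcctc
Ffar3, chr7:30856179-30856428: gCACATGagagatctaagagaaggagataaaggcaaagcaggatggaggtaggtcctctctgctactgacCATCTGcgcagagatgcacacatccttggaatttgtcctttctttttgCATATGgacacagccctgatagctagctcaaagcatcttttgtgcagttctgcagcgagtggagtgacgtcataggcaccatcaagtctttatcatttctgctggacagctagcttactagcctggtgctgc
Gpr119, chrX:48674479-48674728: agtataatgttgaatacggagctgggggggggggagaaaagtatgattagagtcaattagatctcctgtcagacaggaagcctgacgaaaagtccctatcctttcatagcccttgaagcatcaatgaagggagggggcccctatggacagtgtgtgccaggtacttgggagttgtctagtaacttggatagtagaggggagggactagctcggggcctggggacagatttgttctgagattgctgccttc

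Ffar1 and Ffar3 each held 3 E-boxes in this window and Gpr119 held 0. Over 32851 such windows, 12.2% held at least 3 and 33.8% held none. GENCODE places the start of Ffar1 94 bases further upstream than RefSeq does, within the window shown. By that start CAGCTG is upstream, while CAGTTG and CAGATG lie within the gene. Among the members not shown, counts ran from 0 in Ffar4 to 4 in Gpbar1. A match is only a match of letters, and none of these libraries measured binding.

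The first comparison asked which receptors were more abundant in CD24negTomato+ than in Tomatoneg cells. With limma, 0 of the 9 receptors tested passed an adjusted p of 0.05, while 0.999% of the 13420 genes tested passed as higher and 0.32% as lower. At an unadjusted p under 0.05 the counts over all genes were 1377 higher and 915 lower. Same-numbered libraries deviated together, and with the replicate number as a block 4 receptors rose: Casr, Ffar1, Ffar2 and Galr1. In that fit 4.34% of all genes passed as higher and 2.96% as lower. When Tomatoneg replicate 1 was left out, the receptors that passed were these 4 and Ffar4, in a fit that called 4.59% of all genes higher and 3.29% lower. Of the 9 tested, 6 had every CD24negTomato+ library above every Tomatoneg library, against 14.7% of all genes tested, and Casr and Galr1 had passed the expression filter only through their CD24negTomato+ values.

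Among long-chain fatty acid receptors, Ffar1 reached 653, 1019 and 510.0 normalized counts in CD24negTomato+ cells and 0, 45.7 and 40.8 in the Tomatoneg libraries, listed as replicates 1, 2 and 3 here and below. The ranges were far apart. The log2 fold change, computed on normalized count + 1 here and below, was 5.80 ± 1.40 (SE, n = 3 per group), with an adjusted p from limma of 0.0926 without and 0.0395 with the replicate block. Without Tomatoneg replicate 1 it was 3.98, with an adjusted p of 0.00569. Ffar4 was 516, 694 and 740.1 in CD24negTomato+ and 0, 177 and 237 in Tomatoneg libraries. These ranges did not overlap either, yet the Tomatoneg libraries with a value held more Ffar4 than any other member except Lpar5 per kilobase. For Ffar4 the log2 fold change was 4.21 ± 1.89, with a limma adjusted p of 0.31 (0.125 with the block), and it was 1.65 without Tomatoneg replicate 1, with an adjusted p of 0.0286.

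Of the short-chain fatty acid receptors, Ffar2 was apart from Tomatoneg cells and Ffar3 was not. Ffar2 was 639.8, 642 and 462 normalized counts in CD24negTomato+ and 49.98, 175 and 95.8 in Tomatoneg libraries, above the limit of detection in all of them. Its log2 fold change was 2.59 ± 0.49, with a limma adjusted p of 0.0538 without and 0.0277 with the block, and over pseudocounts, scalings and filters it stayed between 2.39 and 2.61. It was 2.14 without Tomatoneg replicate 1, with an adjusted p of 0.0238. Ffar3, its neighbour, was 49.3, 84.3 and 39.1 in CD24negTomato+ and 0, 41.4 and 59.9 in Tomatoneg libraries. These ranges overlapped. A fitted change of 2.02 ± 1.52 on the log2 scale (adjusted p 0.525, limma) became 0.13 without Tomatoneg replicate 1, with an adjusted p of 0.882.

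Gpr119, the receptor for oleoylethanolamide and related lipid amides, was 45.5, 78.9 and 60.6 normalized counts in CD24negTomato+ and 0, 9.78 and 26.8 in Tomatoneg libraries. The ranges were apart, but the log2 fold change of 3.19 ± 1.26 did not pass (limma adjusted p 0.255, and 0.123 with the block). Without Tomatoneg replicate 1 it was 1.82, with an adjusted p of 0.108. Gpbar1, the bile acid receptor TGR5, was low throughout, at 7.56, 28.3 and 19.95 in CD24negTomato+ and 48.8, 11.8 and 0 in Tomatoneg libraries. Its highest value was in the Tomatoneg replicate that lacked 7 other members. Its log2 fold change of 1.01 ± 1.51 had an adjusted p of 0.763 (limma). Left without Tomatoneg replicate 1 it was 2.28 (adjusted p 0.257), and without Tomatoneg replicate 3 it was -0.54.

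Casr, the calcium-sensing receptor, which aromatic amino acids also activate, was 222, 264 and 56.2 normalized counts in CD24negTomato+ and 0, 8.30 and 0 in Tomatoneg libraries. CD24negTomato+ replicate 3 was well below its fellows and still above each Tomatoneg library. The fitted change was 6.16 ± 1.18 on the log2 scale, with a limma adjusted p of 0.0547 without and 0.0257 with the block. Since 2 of the 3 Tomatoneg libraries were at 0, its size followed the pseudocount, at 8.41 with 0.1 and 3.72 with 10, and it was 5.62 without Tomatoneg replicate 1 (adjusted p 0.0327). Gpr142, a receptor for tryptophan and other aromatic amino acids, was 0.952, 2.21 and 0 in CD24negTomato+ and 0, 2.17 and 0 in Tomatoneg libraries, at or below the limit of 3 reads in all 6. No difference in Gpr142 was detectable at this depth, and the filter left it untested.

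Lpar5, a receptor for lysophosphatidic acid, was the one abundant member in Tomatoneg cells, at 626, 517 and 669 normalized counts against 728, 433 and 469 in CD24negTomato+ libraries. The groups overlapped, and the log2 fold change of -0.18 had a 95% interval of -0.88 to 0.51 and a limma adjusted p of 0.785, and without Tomatoneg replicate 1 it was -0.15 (adjusted p 0.771). Galr1, a Gi-coupled receptor for galanin whose gene lies on chromosome 18 at 82392380 to 82406777, was 45.4, 95.7 and 44.9 in CD24negTomato+ and 0, 4.34 and 0 in Tomatoneg libraries. Every CD24negTomato+ library stood above the limit of detection and no Tomatoneg library stood far above it. A difference of 5.08 ± 1.10 was fitted on the log2 scale, with an adjusted p of 0.0722 without and 0.0472 with the block, and 4.68 without Tomatoneg replicate 1 (adjusted p 0.0319).

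**Figure D1:**
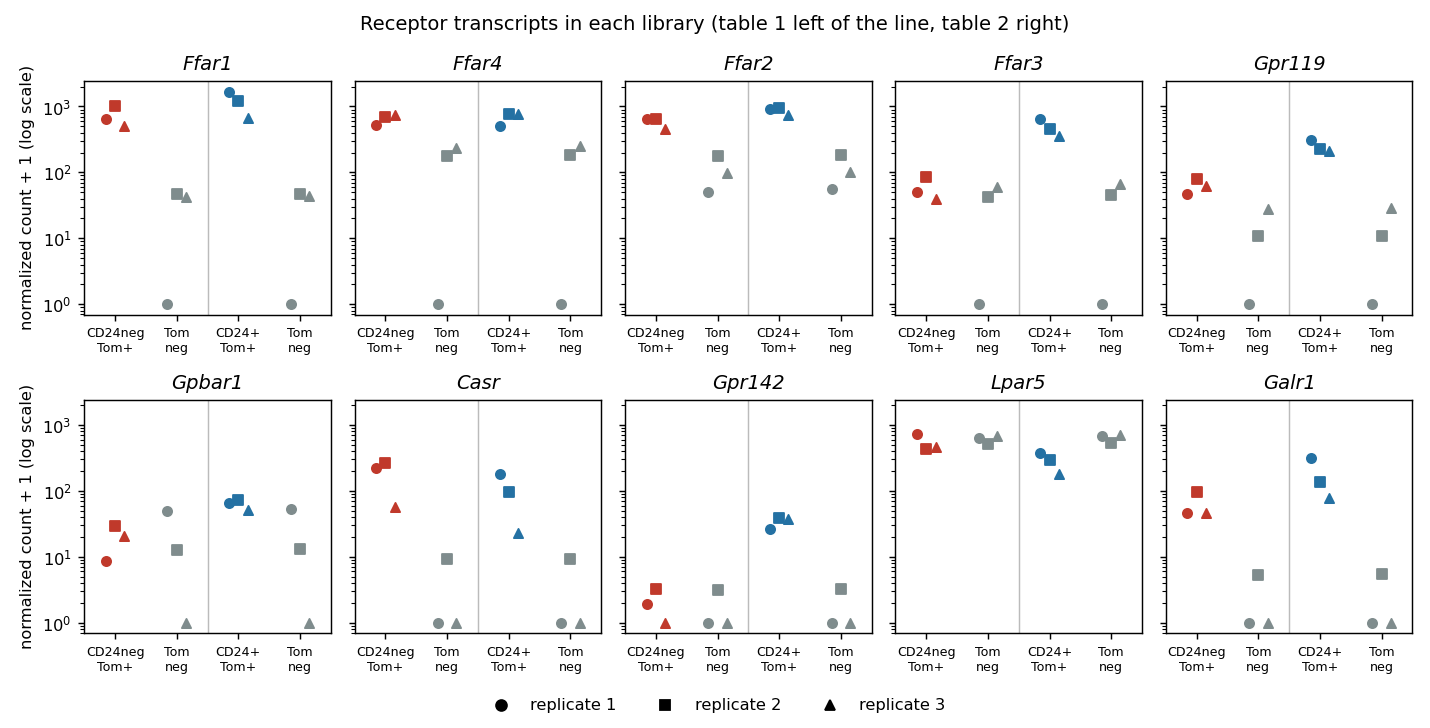
Each panel plots the normalized count + 1 (log scale) of 1 receptor in every library, with CD24negTomato+ (red) and Tomatoneg (grey) libraries of the first table left of the line and CD24+Tomato+ (blue) and the same Tomatoneg libraries in the second table right of it. Tomatoneg replicate 1 (circle) lies at 1, a count of 0, for 7 receptors, and the CD24negTomato+ and Tomatoneg points overlap for Lpar5, Ffar3, Gpbar1 and Gpr142.

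The second comparison set CD24+Tomato+ against Tomatoneg cells. Of the 10 receptors, all tested, 6 rose: Casr, Ffar1, Ffar2, Galr1, Gpr119 and Gpr142. Over the 13874 genes tested, 8.02% passed as higher and 4.89% as lower. The replicate block added Ffar3 as higher and Lpar5 as lower, in a fit that called 10.8% of all genes higher and 9.95% lower. CD24+Tomato+ libraries were all above Tomatoneg libraries for 8 receptors and all below for 1, Lpar5, while Gpbar1 overlapped. Over all genes these shares were 21.6% and 14.4%. Casr, Gpr142 and Galr1 had passed the expression filter only through their CD24+Tomato+ values, so their calls do not count in support of the group. With no filter the calls of Gpr142 and Galr1 held (adjusted p 0.0295 and 0.0171) and that of Casr did not (0.0535).

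Ffar1 was 1678, 1198 and 661 normalized counts in CD24+Tomato+ replicates 1, 2 and 3, against 0, 46.7 and 42.8 in Tomatoneg libraries and replicates 1 and 2 of CD24+Tomato+ held the highest values of any member. Its log2 fold change was 6.43 ± 1.44 (SE, n = 3 per group), with a limma adjusted p of 0.0289, and 4.59 without Tomatoneg replicate 1 (adjusted p 0.00178). Ffar2 was 925, 956 and 739.6, against 54.3, 180.3 and 101. No Tomatoneg library was at 0 for Ffar2, and its log2 fold change of 3.11 ± 0.47 had an adjusted p of 0.00974 (limma), and 2.67 without Tomatoneg replicate 1 (adjusted p 0.00396). Ffar4 was 508, 776 and 772 in CD24+Tomato+ and 0, 181 and 249 in Tomatoneg libraries, with a log2 fold change of 4.24 ± 1.94 that did not pass (adjusted p 0.205, and 0.0708 with the block) but that was 1.66 and passed without Tomatoneg replicate 1 (adjusted p 0.0144).

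Ffar3 was 644, 461 and 355 normalized counts in CD24+Tomato+ and 0, 44.7 and 66.3 in Tomatoneg libraries. Here, unlike in the first table, the Ffar3 ranges were far apart. For Ffar3 the log2 fold change was 5.02 ± 1.51, with a limma adjusted p of 0.0714 without and 0.038 with the block, and without Tomatoneg replicate 1 it was 3.09 with an adjusted p of 0.00429. Gpr119 was 309, 222 and 208, against 0, 10.01 and 28.1, each CD24+Tomato+ value several times the highest Tomatoneg value. Gpr119 had a log2 fold change of 5.15 ± 1.21 (adjusted p 0.0337), and 3.77 without Tomatoneg replicate 1 (adjusted p 0.00606).

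Gpr142 was 25.6, 38.4 and 36.4 normalized counts in CD24+Tomato+ and 0, 2.25 and 0 in Tomatoneg libraries. It was the member that was detected in CD24+Tomato+ libraries alone, since every other library held less than 3 reads of it. Its fitted log2 fold change of 4.52 ± 0.97 (limma adjusted p 0.025) followed the pseudocount, from 6.85 with 0.1 to 2.01 with 10. Galr1 was 315, 133 and 77.6, against 0, 4.44 and 0, with a log2 fold change of 6.41 ± 1.03 (adjusted p 0.0108). Casr was 178, 94.3 and 21.6, against 0, 8.35 and 0, and its log2 fold change of 5.11 ± 1.28 had an adjusted p of 0.0407. This call was near the threshold and was lost with equal library totals (0.0526), quantile normalization (0.0519), a pseudocount of 0.1 (0.0762) and no filter (0.0535), all by limma. The Casr values differed more among replicates than those of any other member that rose. Replicate 1 was the highest and replicate 3 the lowest of the CD24+Tomato+ libraries for Casr. The same order held for Galr1, Ffar1, Gpr119, Ffar3, Lpar5 and Chga. Without Tomatoneg replicate 1, the log2 fold changes of Gpr142, Galr1 and Casr were 4.24, 6.0 and 4.57, with adjusted p of 0.0158, 0.00851 and 0.0476.

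Gpbar1 was 64.4, 72.5 and 49.7 normalized counts in CD24+Tomato+ and 52.6, 12.1 and 0 in Tomatoneg libraries. The ranges just overlapped, and the log2 fold change of 2.81 ± 1.40 had a limma adjusted p of 0.243, or 0.143 with the block. Without Tomatoneg replicate 1 it was 4.11 (adjusted p 0.0448). Lpar5 was 379, 289 and 181 in CD24+Tomato+ and 678, 532 and 706 in Tomatoneg libraries, the one member below Tomatoneg cells in every pair. Its log2 fold change was -1.23 ± 0.35, with a limma adjusted p of 0.064 without and 0.0407 with the block, and it was -1.18 without Tomatoneg replicate 1 (adjusted p 0.0766). Markers of other cells were lower beside it: the summed enterocyte markers ranged from 31190 to 103547 in CD24+Tomato+ cells, against 184670 to 664685 for Tomatoneg, and the summed T cell and intraepithelial lymphocyte markers from 477 to 574, against 3597 to 11821. In the first table, where the Lpar5 groups overlapped, the T cell and intraepithelial lymphocyte sums were 640 to 1241 against 3340 to 11544. Enterocyte sums there overlapped, at 250887 to 563382 against 181014 to 618214. The part of these cells in the Lpar5 difference was not tested.

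The calls rested on all 3 CD24+Tomato+ libraries. Without replicate 1 of that population only Ffar2 of the 10 passed, and without replicate 2 or without replicate 3 the number was 0. In those fits, which had 1 library fewer, the count over all genes went from 1791 to 669, 168 and 329, and the fitted changes of the 6 receptors kept their sign. Without Tomatoneg replicate 1, 9 receptors passed, all but Lpar5, in a fit that called 11.6% of all genes higher and 6.16% lower. Leaving out Tomatoneg replicate 2 lost Gpr119, and leaving out replicate 3 lost Casr and Gpr142.

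**Figure D2:**
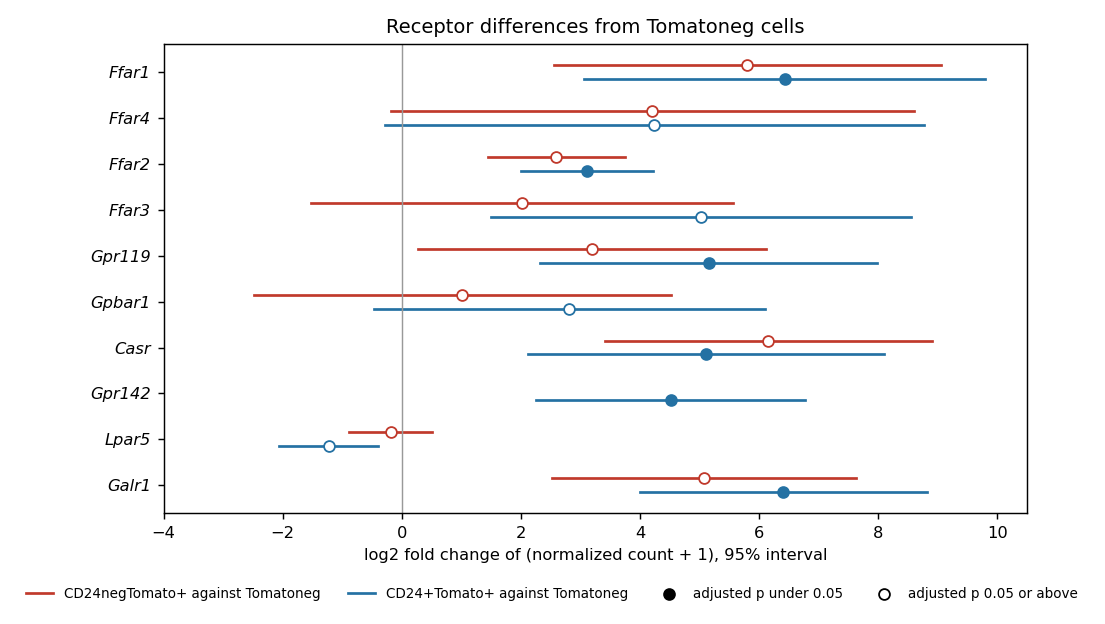
Points give the log2 fold change of normalized count + 1 against Tomatoneg cells for each receptor, lines its 95% interval from limma, red for CD24negTomato+ and blue for CD24+Tomato+, and filled points an adjusted p under 0.05. The 6 filled points are all blue, Gpr142 has no red point because it was not tested there, and Lpar5 is the receptor with values below 0, at -0.18 and -1.23. Both comparisons use the same Tomatoneg libraries.

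Levels were ordered within a table as normalized counts per kilobase of exon (GENCODE M21), since longer transcripts give more reads. In CD24negTomato+ libraries the order was Ffar4 at 464 per kilobase, Lpar5 at 359, Ffar2 at 208 and Ffar1 at 174, then Casr at 38.3, Ffar3 at 31.1, Gpr119 at 27.2, Galr1 at 20.8 and Gpbar1 at 17.3, with Gpr142 last at 0.944. A gap without overlap lay between Lpar5 and Ffar2, between Ffar1 and Casr and between Gpbar1 and Gpr142, and the other neighbours in this order overlapped. Ffar4 was also first in CD24+Tomato+ libraries, at 489 per kilobase, with libraries from 363 to 554 that overlapped those of Ffar1 (158 to 402) and lay above those of the other members. Ffar2 (313), Ffar1 (282), Ffar3 (263) and Lpar5 (187) followed and overlapped in turn with their neighbours. Gpr119 (109), Galr1 (58.7) and Gpbar1 (57.8) came next and overlapped likewise, and Gpr142 (30.0) and Casr (20.8), which overlapped each other, came last, below the range of Gpbar1. In Tomatoneg libraries of the first table Lpar5 led at 399 per kilobase with no overlap, ahead of Ffar4 at 98.4 and Ffar2 at 38.3, and the remaining members were at 18.8 or less.

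The 2 Tomato+ populations are in different tables, so each receptor was divided by Chga in the same library, which cancels a scaling common to all genes of a library but not one that differs between genes. Chga itself differed in level, and more genes are high per Chga in CD24negTomato+ cells: of the 12919 genes with a mean of at least 10 in each Tomato+ population, 51.8% had all CD24negTomato+ libraries above all CD24+Tomato+ libraries, and 2.89% the reverse. Ffar3 was among the few on the CD24+Tomato+ side, at 5.03, 4.27 and 2.55 per 1000 Chga counts for CD24negTomato+ and 13.4, 13.01 and 14.4 for CD24+Tomato+ replicates 1, 2 and 3. Its means were 3.95 ± 1.27 and 13.6 ± 0.712 (SD, n = 3 each), a ratio of 3.44. Gpr119 was on the same side, at 4.19 ± 0.386 and 7.04 ± 1.21 (SD, n = 3 each), a ratio of 1.68. With 3 against 3 libraries an exact two-sided permutation test cannot give a p below 0.1, which is what both gave, so neither can pass 0.05. Tuft markers, 345 to 384 in CD24negTomato+ against 12528 to 14885 in CD24+Tomato+ libraries, differed in the same direction as Ffar3 and Gpr119, and so did Paneth markers, at 18132 to 45002 against 461569 to 1890480. The summed gut hormones did so too, at 93564 to 172637 against 289948 to 433472. Among them Gip was 458 to 2109 against 129277 to 174626, and Sst 53.4 to 226 against 30735 to 62671, while Cck and Nts overlapped. The part of any of these in the ratios was not tested.

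Ffar4, Ffar2 and Lpar5 lay on the other side, with the majority of genes. Ffar4 was 45.3 ± 9.09 per 1000 Chga counts in CD24negTomato+ and 21.2 ± 10.4 in CD24+Tomato+ libraries (SD, n = 3 each). Ffar2 was 42.6 ± 19.6 and 25.4 ± 5.55, with the nearest libraries almost touching at 30.1 and 29.9. Lpar5 was 42.2 ± 28.1 and 7.78 ± 0.437, a ratio of 5.43, but Tomatoneg libraries held 431 to 972 Lpar5 counts per 1000 Chga counts, so Lpar5 did not follow Chga across the populations. Ranges of Ffar1, Casr, Gpbar1 and Galr1 overlapped between the Tomato+ populations, with Galr1 nearly level at 4.13 ± 1.05 and 4.48 ± 1.81. Gpr142 was at 0.0971, 0.112 and 0 against 0.531, 1.08 and 1.47, and it was left out of the count because its mean was under 10 in CD24negTomato+ libraries. Of 9 receptors, 3 were apart on the CD24negTomato+ side and 2 on the other. With the geometric mean of the EEC markers in place of Chga the counts were 5 and 1, where 57.3% and 1.65% of all genes were apart on these sides: Ffar1 and Casr separated, Ffar3 stayed higher in CD24+Tomato+ libraries with a ratio of 2.79, and Gpr119 overlapped, with a ratio of 1.28.

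**Figure D3:**
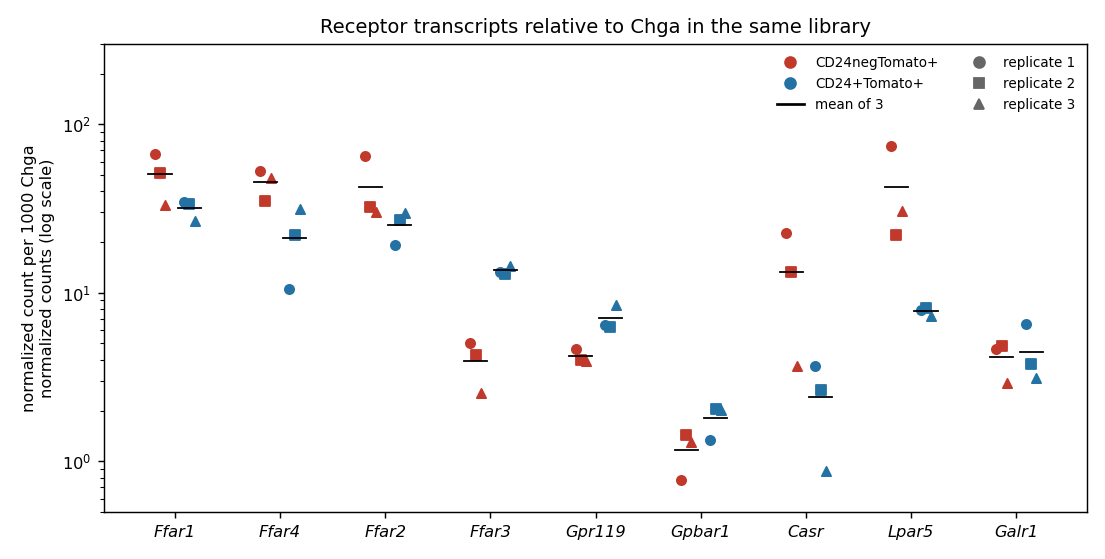
Points give normalized counts of each receptor per 1000 normalized counts of Chga in the same library (log scale) for CD24negTomato+ (red) and CD24+Tomato+ (blue) replicates, and bars the mean of 3. Ffar3 and Gpr119 are the receptors with all blue points above all red ones, and Ffar4, Ffar2 and Lpar5 those with all red points above all blue ones, Ffar2 by 30.1 against 29.9. Gpr142 is not drawn because it was at 0 in 1 library.

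Hormones with a profile close to that of a receptor were sought by the root mean square distance of centred log2 values over the 6 libraries of a table. The libraries share their Tomatoneg zeros, and the distances are a description. Galr1, Casr and Gpr142 had passed the filter only through Tomato+ values, with 2 Tomatoneg libraries at 0. The size of their change, and so the distance, depends on the pseudocount, and their closeness to a hormone does not count in support. In the first table Galr1 was closest to Nts, the neurotensin gene, at a distance of 0.539, which ranked 19 among 13419 genes, and Casr to Cck, the cholecystokinin gene, at 0.839, rank 28. Second-table distances were smallest for Gpr142 and Gcg, the gene of GLP-1 and glucagon, at 0.376 and rank 13 of 13873, followed by Galr1 and Nts at 0.664, rank 33, and Casr and Nts at 0.821, rank 69. Ffar2 was closest to Gast, the gastrin gene, in both tables (0.689 and 0.859), and Gpr119 to Tac1, the tachykinin gene (1.12 and 1.09). Ffar1 had no hormone nearer than 1.57, Ffar4 none nearer than 2.20 and Ffar3 none nearer than 1.60, in either table. These receptors were at 0 in Tomatoneg replicate 1, where first-table values were 371 for Cck, 68.0 for Tac1 and 0 for Gast. No distance without that library was computed. Among all genes, Drd4, a dopamine receptor gene, was among the 3 nearest to Galr1 in both tables, at 0.169 and 0.364, and Ptgs1, a cyclooxygenase gene that is also on the tuft list, was among the 3 nearest to Ffar3 in the second, at 0.251.

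Other receptors were counted from fixed lists. Of 15 other nutrient and lipid receptors, 7 could be tested in the first table, 0 of which passed with or without the block, with a median log2 fold change of 0.40 beside 0.08 for all genes. In the second, 8 could be tested and 1 rose: Hcar1, the lactate receptor, was 85.3, 40.7 and 25.2 normalized counts in CD24+Tomato+ and 0, 2.22 and 3.38 in Tomatoneg libraries. Its log2 fold change was 4.24 (limma adjusted p 0.0338, and 0.0526 with the block). Hcar1 passed the filter only through its CD24+Tomato+ values. In the first table Hcar1 was 48.2, 55.7 and 22.05 against 0, 2.17 and 3.22, with a log2 fold change of 4.08 and an adjusted p of 0.111. Hcar1 passed in both tables without Tomatoneg replicate 1, at 3.45 (0.0373) and 3.60 (0.0202), and the list had 2 of 7 and 2 of 9 higher. The taste receptor gene Tas1r1 and the amino acid receptor gene Gprc6a were at 0 in all CD24negTomato+ and Tomatoneg libraries.

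Among peptide and transmitter receptors tested in the second table, 6 of 15 rose and 1 fell, with a median log2 fold change of 3.57 beside 0.16 for all genes. The somatostatin receptors Sstr1, Sstr2, Sstr3 and Sstr5, which restrain hormone release through Gi, rose by 6.50, 4.54, 5.45 and 6.51 on the log2 scale, the vasopressin receptor Avpr1b by 5.07 and the cannabinoid receptor Cnr1 by 5.87. Vipr1, a receptor for vasoactive intestinal peptide, fell by 1.92. Of the 15 tested in the first, 0 passed without the block and 3 with it, Sstr1, Sstr3 and Sstr5, at log2 fold changes of 5.17, 4.76 and 5.37. Gal, the ligand gene of Galr1, rose by 4.57 in CD24+Tomato+ cells (adjusted p 0.0231, limma), at 31.9, 19.6 and 40.9 normalized counts against 0, 1.11 and 0. Gal, Sstr1, Sstr2, Sstr3 and Cnr1 had second-table Tomatoneg means under 10, so they passed the filter only through CD24+Tomato+ values. Leaving out Tomatoneg replicate 1, the list had 7 of 15 higher in the first table, and 9 of 15 higher and 1 lower in the second, where Sstr1, Sstr2, Sstr3 and Sstr5 were 5.47, 3.51, 4.44 and 4.94 higher on the log2 scale, Avpr1b 3.65 and Cnr1 5.21.

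Signalling genes downstream of the receptors moved unevenly. For Gi and Go proteins, the partners of FFAR3 and GALR1, 1 of 5 tested rose in the first table and 2 of 6 in the second. Gnao1, the Go subunit, rose by 3.67 in CD24negTomato+ (limma adjusted p 0.0109) and by 5.31 in CD24+Tomato+ cells (0.00102). Gnai1, an inhibitory subunit, rose by 6.03 in CD24+Tomato+ cells (0.0165) and was 5.40 higher in CD24negTomato+ cells, with an adjusted p of 0.0677 without and 0.0388 with the block. In both tables Gnai1 passed the filter only through its Tomato+ values. In the Gs and cAMP list, the route of GPR119 and GPBAR1, 0 of 17 passed in the first table (2 with the block, Adcy1 and Adcy2) and 3 of 18 rose in the second: the adenylyl cyclases Adcy1 by 4.87 and Adcy2 by 4.52, and the cAMP sensor Rapgef3 by 1.57. The median of the whole list was 0.48 and 0.78, nearer to that of all genes. The Gi and Go list had, without Tomatoneg replicate 1, 2 of 5 and 2 of 6 higher, and the Gs and cAMP list 2 of 17 and 6 of 18 higher and 1 lower in each table.

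The Gq list, the route of FFAR1 and FFAR4, moved in both directions. In CD24+Tomato+ cells 3 of 14 rose, the phospholipase Plcb4 by 3.79, the IP3 receptor Itpr1 by 1.86 and the calcium-gated channel Trpm5 by 3.32, and 2 fell, the G protein subunit Gna11 by 1.74 and the phospholipase Plcb3 by 1.35. In CD24negTomato+ cells 0 of 14 passed without the block, while with it Gna14, a Gq family subunit, rose by 4.29 and Plcb2, Trpm5 and Plcb3 fell by 3.02, 2.39 and 0.61. Trpm5 and Plcb2 are also well-known tuft cell genes, and they moved with the tuft markers, being lower than Tomatoneg in the first table and higher in the second. Plcb1 was 2.21 and 2.62 higher in the 2 comparisons and did not pass in either without the block. Of 12 receptor regulators, Rgs2, which limits Gq signalling, rose in both populations, by 4.37 (limma adjusted p 0.0262) and 3.26 (0.0171). Second-table calls were 6 regulators that rose, among them Rgs4 by 6.39 and Rgs17 by 6.26, and 2 that fell, Rgs3 by 1.18 and the arrestin Arrb1 by 1.08. Rgs17 was at 0 in all Tomatoneg libraries, so it passed the filter only through CD24+Tomato+ values. The Gq list had, without Tomatoneg replicate 1, 1 higher and 2 lower in the first table and 5 higher and 2 lower in the second, and the regulators 2 higher in the first and 7 higher and 2 lower in the second, with Rgs4 at 4.42 in place of 6.39.

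For scale, hormone genes and cell type markers changed as follows. Of 12 tested gut hormones 7 rose in the first table, among them Cck by 6.07 and Nts by 5.66, and 12 of 13 rose in the second, among them Ghrl by 6.62, Sst by 6.05 and Gip by 5.69. In the first table Gip and Sst went the other way, with log2 fold changes of -1.75 and -2.34 that passed only with the block. EEC markers rose in 5 of 12 and 12 of 12. All 8 goblet markers rose in both, 6 of 6 Paneth markers rose in the second table and 0 in the first, and tuft markers fell in 3 of 6 and rose in 6 of 8. Enterocyte markers fell in 0 and 5 of 8, stem cell markers in 1 and 0 of 6, T cell markers in 3 and 7 of 8, B cell markers in 1 of 5 and 2 of 6, and myeloid markers in 0 and 1 of 7. No stromal or acinar marker passed in either table, and 1 islet marker, Iapp, rose in the second, by 4.33. For the 4 fatty acid receptors the median log2 fold change was 3.40 in the first table and 4.63 in the second, and for the 12 EEC markers it was 4.01 and 5.13. The EEC markers that rose without Tomatoneg replicate 1 were 10 and 12, and the gut hormones 9 and 13.

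**Figure D4:**
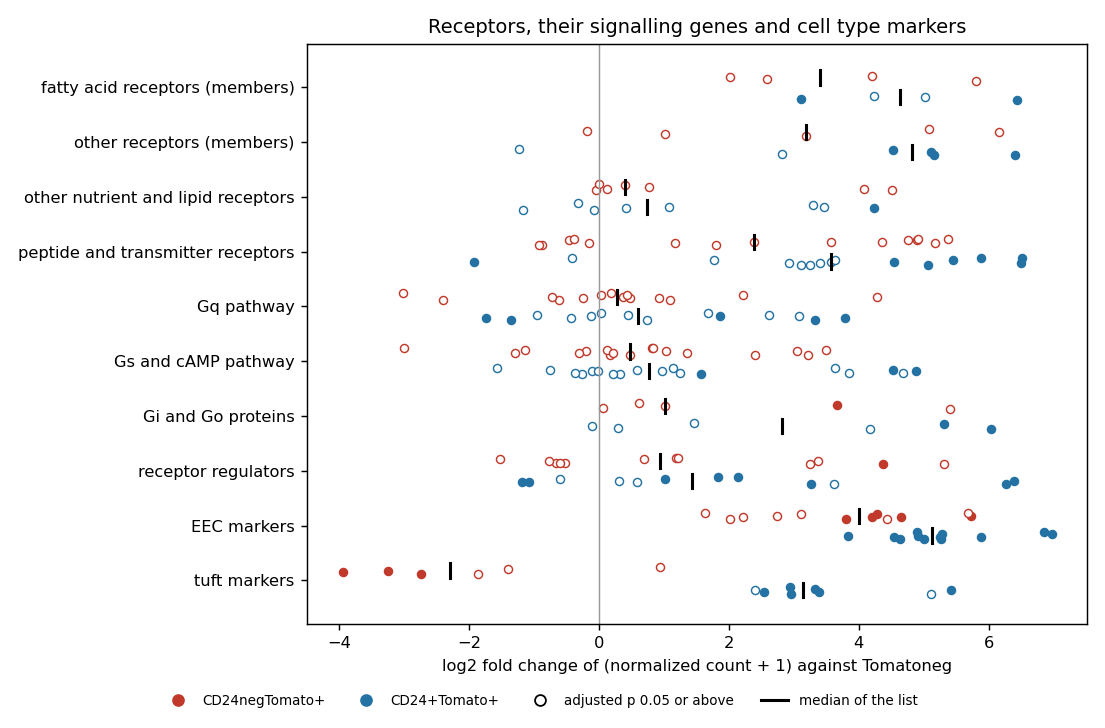
Each point is 1 tested gene of the list at the left, placed by its log2 fold change of normalized count + 1 against Tomatoneg cells in the first table (red) or the second (blue), filled where the adjusted p was under 0.05, with black bars at the list's median. All 4 fatty acid receptors and all EEC markers lie to the right of 0 in both, the lists of other receptors and of signalling genes have most points to the right and, in at least 1 comparison, some to the left, and the tuft markers have medians of -2.30 in CD24negTomato+ and 3.14 in CD24+Tomato+ cells.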

How the data were processed

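Poly-A RNA of 9 libraries was sequenced by the authors, and the submitters' processing notes name bcl2fastq 2.19, kallisto 0.44.0, sleuth, DESeq2 and GRCm38. The deposited values are a signal: gene counts estimated by the authors and normalized within each of 2 tables of 6 libraries. Whole reads could not be recovered (42.2% to 60.3% of low values lay within 0.03 of a whole multiple of 1 read), so no count test was run. For Tomatoneg replicates 1, 2 and 3, second-table values divided by first-table values had medians of 1.078, 1.024 and 1.05 and differed from gene to gene, so tests stayed within a table. Columns used were mapped to samples by name, and 0 columns were left out.

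Limma 3.58.1 (R 4.3.3; lmFit, eBayes with trend) was applied to log2(normalized count + 1) of genes with a mean of at least 10, two-sided, with Benjamini-Hochberg adjustment over all genes tested and a threshold of 0.05. In simulated data, 42% of genes changed by 2 on the log2 scale and 88% of those changed by 4 were recovered for CD24negTomato+ (13420 genes), and 51% and 83% for CD24+Tomato+ (13874 genes). Of the simulated calls, 7.14% and 6.94% were of unchanged genes. Errors were drawn independently for each library and low genes were left unchanged, so pairs and genes near 0 were not covered. Same-numbered libraries, numbered alike in the sample labels, deviated together (correlations of 0.18 to 0.375, against -0.364 to -0.0297 for other numbers), and were treated as pairs in the fit with the replicate block.

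The members and lists were chosen with earlier results of these data known. Named genes were all members, Chga, Foxo1, at most 5 called genes of each list and comparison by size of change, the nearest hormone and the 3 nearest genes of each receptor. Plcb1, Plcb2, Hcar1 in the first table, Gna14, Gpr142 per Chga, genes at 0 and the genes called only with the block were named after their values were seen. Alternatives were pseudocounts of 0.1 and 10, a mean of at least 1, no filter, quantile normalization, equal library totals, the replicate block, no trend, each library left out and the EEC geometric mean. Python 3.11.15, numpy 2.4.6, pandas 2.3.3 and matplotlib 3.10.9 were used.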

Additional observations from a re-analysis of the deposited data

Results flagged for a closer look

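Across the fixed lists of signalling genes, 5 genes had every same-numbered pair on opposite sides of Tomatoneg cells in the 2 comparisons. The difference between the comparisons was not tested, and both use the same Tomatoneg libraries. Trpm5 had a log2 fold change of -2.39 in CD24negTomato+ and 3.32 in CD24+Tomato+ cells, and Plcb2 of -3.02 and 1.68. Plcb2 was 369 normalized counts in Tomatoneg replicate 1 in the first table and 538 in the second, and the part of this in its difference was not tested. Prkcd and Prkca, 2 kinases of the Gq route, had log2 fold changes of 0.43 and 0.48 in CD24negTomato+ and -0.96 and -0.43 in CD24+Tomato+ cells. Grk6, a receptor kinase, had -0.60 and 0.58, and the second of these was 0.02 without Tomatoneg replicate 1. No receptor of the 10 behaved in this way.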

How the results depend on the processing

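For CD24negTomato+ cells the number of receptors past the threshold was 0, and it became 4 with a pseudocount of 10, 4 with the replicate block, 2 with quantile normalization, 1 without the trend and 0 to 5 with single libraries left out, the 5 without Tomatoneg replicate 1 and 2 without Tomatoneg replicate 2. The number of all genes went from 177 (134 higher, 43 lower) to 112 with a pseudocount of 0.1, 415 with 10, 979 with the replicate block, 276 with quantile normalization, 291 without the trend and 18 to 1059 with single libraries left out. With equal library totals it was 158, with 98 higher and 60 lower, and the median log2 fold change of all genes moved from 0.08 to -0.12. For CD24+Tomato+ cells the number of receptors was 6, and it became 2 with a pseudocount of 0.1, where Ffar2 and Galr1 passed. It became 7 with a pseudocount of 10, which added Ffar3, 8 with the replicate block and 0 to 9 with single libraries left out. It was 4 without the trend, which lost Ffar1 and Gpr119, and 5 with no filter, with equal library totals and with quantile normalization, each of which lost Casr, the last also losing Gpr142 and gaining Lpar5. All genes went from 1791 to 1275 with a pseudocount of 0.1, 2237 with 10 and 2885 with the replicate block. Their number was 1472 without the trend, 1541 with equal library totals and 1728 with quantile normalization. It was 1817 with no filter, of 20962 tested, and 168 to 2478 with single libraries left out. Quantile normalization moved the median log2 fold change there from 0.16 to 0.03. Gpbar1 in CD24negTomato+ cells was the 1 receptor whose sign turned, to -0.54 without Tomatoneg replicate 3, with values up to 2.28 without Tomatoneg replicate 1. The cause of these changes was not tested, and fits with a library left out also had fewer samples. Receptors separated per Chga count were 5 of 9, 3 on the CD24negTomato+ side and 2 on the other, beside 51.8% and 2.89% of all genes. With single libraries left out they were 5 to 7, and the shares over all genes were not computed for those settings. Of the single-receptor values under the alternatives, 210 kept their direction and call, 25 came to pass and 30 no longer passed. The planned edgeR and DESeq2 tests on recovered reads were not run because whole reads could not be recovered. Counts near 0 in Tomatoneg libraries limit the size of the changes of Casr, Galr1 and Gpr142. The same holds for Hcar1, Gal, Gnai1, Rgs17, Sstr1, Sstr2, Sstr3 and Cnr1, whose Tomatoneg means were under 10. Where tested, they passed the expression filter only through Tomato+ values, so their calls do not count in support of either group.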
